A study of Mus musculus with 6 samples.

Results

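Regulators of mitochondrial and fat-burning genes, 10 in all, were followed in quadriceps muscle of tumour-bearing mice: the coactivators Ppargc1a and Ppargc1b, the muscle regulator Perm1, the oestrogen-related receptors Esrra, Esrrb and Esrrg, the retinoid X receptor Rxrg, the peroxisome proliferator-activated receptors Ppara and Ppard, and the mitochondrial DNA factor Tfam. All probes that the platform annotation assigns to these 10 genes were taken, which gave 17 of the 45281 probes on the array, and 13 of the 17 were detected on enough arrays to be tested. All 10 genes had at least 1 tested probe, among 10196 genes tested. A probe counted as detected on an array where its detection p-value, which compares it with the array's negative controls, was below 0.05.

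Total RNA came from NOD-SCID mice, an immunodeficient strain that accepts human tumours, fed without restriction. Each had received 5000000 cells under the skin, and muscle was taken after 22 days. RXF393 and SKRC39 are human renal cancer lines, and the labels call RXF393 cachectic and SKRC39 not. The comparison asks how muscle differs between a tumour line that causes wasting and one that does not; every mouse carried a tumour, and arrays of tumour-free mice were not analysed here, so a difference cannot be placed against healthy muscle. Each side of the comparison rests on a single tumour line. The age and sex of the mice are not given in the sources used here.

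The 2 arrays of RXF393 (replicates 2 and 3) were set against the 2 arrays of SKRC39 (replicates 1 and 2), numbered by title. On 2 further arrays the labels conflict. The array titled SKR_3 is given RXF393 in its characteristics, and the array titled RXF_1 is given SKRC39. Their values are shown apart and enter no group. Per the design text RNA was prepared for each mouse, and 6 samples were run on the beadchip. It does not say outright that each line had 3 mice with 1 array each, so n counts arrays, and SEs and p-values measure the spread between these samples, which may be technical. Values are background-corrected, quantile-normalized intensities on a log2 scale, called log2 intensity below, and a change is RXF393 minus SKRC39 on that scale with its standard error (SE). With 2 against 2 arrays an exact two-sided permutation test of a single gene cannot go below p = 0.33, so single genes were tested in limma's fit across all probes. Bulk muscle RNA cannot tell fewer cells of a type from less RNA per cell.

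PGC-1 coactivators have no DNA-binding domain of their own. They are recruited to chromatin by receptors such as the oestrogen-related receptors (ERRs) and the PPARs, which bind as partners of retinoid X receptors, and they switch on genes of respiration, the TCA cycle and fatty acid oxidation. PERM1 is a striated-muscle protein induced by PGC-1 and ERRs that acts on part of the same programme. TFAM packages and transcribes mitochondrial DNA, which links the nuclear programme to the mitochondrial genome.

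None of the 10 regulators passed the adjusted threshold of 0.05 in limma's test, where 0.353% of all genes passed. At an unadjusted p under 0.05 there were 5 of 10, against 14.8% of all genes: Perm1, Rxrg, Ppargc1b and Esrra with lower values and Ppard with higher values with RXF393. In 6 of the 10 the 2 arrays of one line lay wholly apart from those of the other, against 48.7% of all genes. RXF393 lay below SKRC39 in 4 of these (20.6% of all genes) and above it in 2 (28.1% of all genes). The 2 were Ppard and Ppara, and Ppara was detected on RXF393 replicate 3 alone of these arrays. The median change of the 10 was -0.62, and that of all genes tested was 0.07. The regulators and the gene lists below were chosen with earlier results of these data known. Their counts beside the shares of all genes are therefore descriptions and no test of the sets. Ppargc1a, Tfam, Esrrg and Esrrb had overlapping lines on their main probes.

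**Figure D1:**
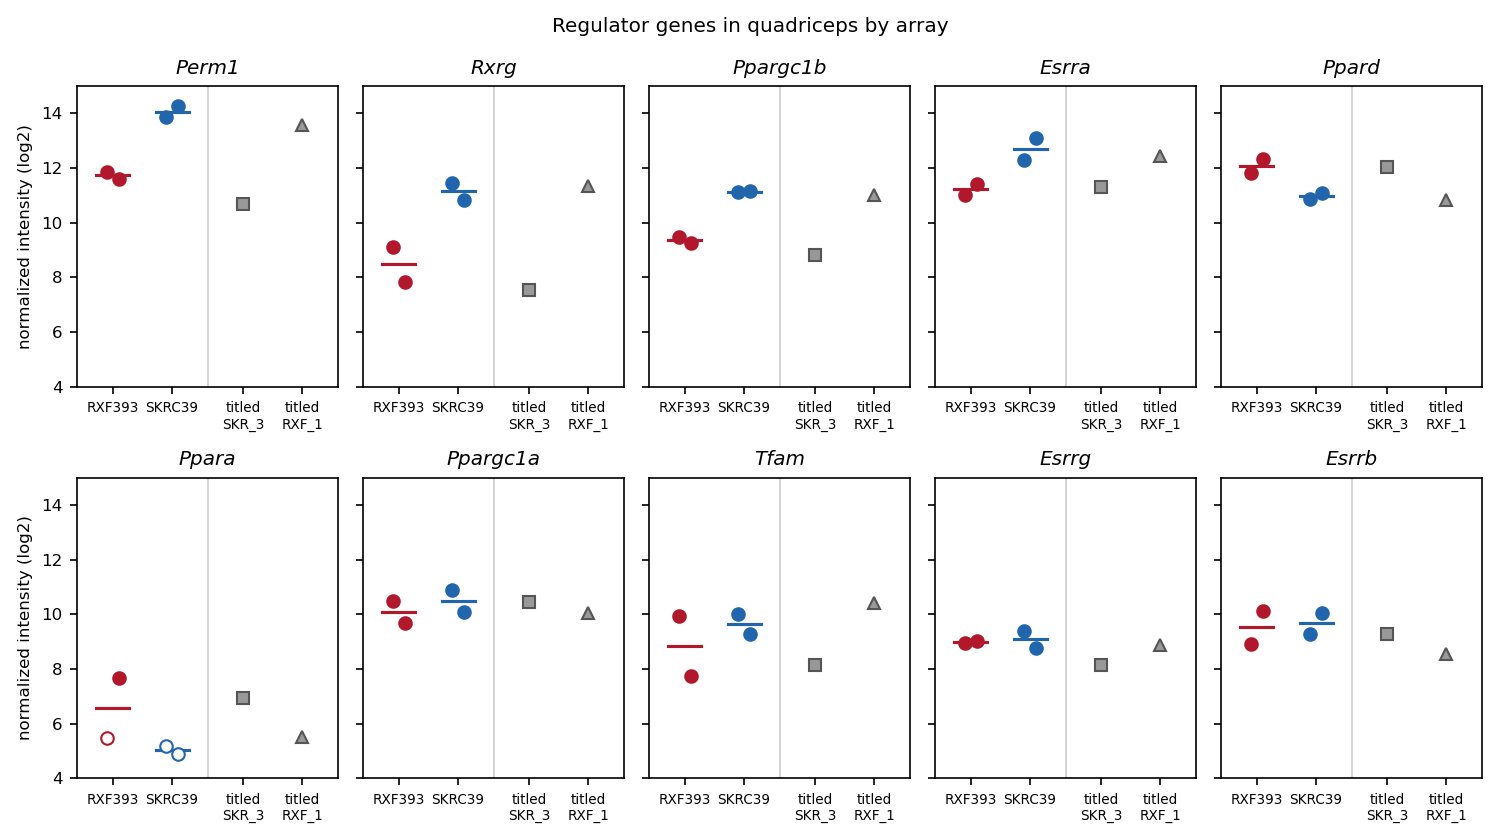
Log2 intensity (vertical axis) of the main probe of each of the 10 regulators. Red circles are the 2 RXF393 arrays, blue circles the 2 SKRC39 arrays, horizontal bars their means, and grey symbols the 2 arrays with conflicting labels; open symbols mark arrays where the probe was not detected. Perm1, Rxrg, Ppargc1b and Esrra lie lower with RXF393 than with SKRC39, and Ppard and Ppara lie higher. Of the arrays of the 2 lines, Ppara was detected on RXF393 replicate 3 alone.

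Perm1 encodes the PGC-1 and ERR-induced regulator of striated muscle, and it has 1 probe. Its log2 intensity was 11.86 and 11.60 on RXF393 replicates 2 and 3, against 13.87 and 14.27 on SKRC39 replicates 1 and 2. In the non-normalized table the same arrays read 3731 and 3549.5 with RXF393, against 15464 and 16151 with SKRC39. Both RXF393 arrays were low, both SKRC39 arrays were high, and the gap between the lines was several times the spread within either. The change was -2.34 ± 0.33 (SE, n = 2 per line), a 5.05-fold lower value with RXF393, and it just missed the threshold over all probes (adjusted p = 0.0567, limma; unadjusted p = 1.90e-04). This miss was kept in 13 of 20 alternative settings, and Perm1 passed in the other 7. It passed with the probe filter set to detection on all 6 arrays (adjusted p = 0.0136) and with robust eBayes (adjusted p = 0.0277). It missed when background correction was skipped (adjusted p = 0.0699), when the trend was dropped from the fit (0.22) and with median scaling (0.18). Leaving out an array at a time, which leaves 1 array in a line, gave changes of -2.54 to -2.13. Perm1 stood at 10.67 on the array titled SKR_3 and at 13.58 on the array titled RXF_1.

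Rxrg encodes the retinoid X receptor isoform found in skeletal muscle, the DNA-binding partner of PPARs. It read 9.12 and 7.84 on RXF393 replicates 2 and 3, against 11.44 and 10.85 on SKRC39 replicates 1 and 2. All values with RXF393 lay below all values with SKRC39, but the 2 RXF393 arrays were themselves 1.29 apart. The change of -2.66 ± 0.62 was the largest in size of the 10 (6.33-fold lower, adjusted p = 0.18, limma). On the arrays titled SKR_3 and RXF_1 it read 7.55 and 11.35.

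Ppargc1b encodes PGC-1 beta, a coactivator related to PGC-1 alpha. It read 9.46 and 9.27 on RXF393 replicates 2 and 3, against 11.11 and 11.16 on SKRC39 replicates 1 and 2. Both lines were tight, with standard deviations of 0.14 (RXF393) and 0.03 (SKRC39). The change was -1.77 ± 0.46, a 3.405-fold lower value with RXF393 that did not pass (adjusted p = 0.21, limma). On the arrays titled SKR_3 and RXF_1 Ppargc1b read 8.82 and 10.999.

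Ppargc1a encodes PGC-1 alpha, the coactivator induced in muscle by exercise and cold. It read 10.48 and 9.68 on RXF393 replicates 2 and 3, against 10.89 and 10.09 on SKRC39 replicates 1 and 2, and the lines overlapped. The change was -0.41 ± 0.54 (adjusted p = 0.75, limma), and leaving out an array at a time gave -0.81 to -0.01. The other Ppargc1a probe was not detected on any of the 6 arrays, so the gene rests on 1 probe. The arrays titled SKR_3 and RXF_1 read 10.46 and 10.05, between the extremes of the other 4.

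Among the ERR receptors, Esrra, which encodes the PGC-1 partner ERR alpha, lay lower with RXF393 on both of its probes. The brighter probe read 10.999 and 11.43 on RXF393 replicates 2 and 3, against 12.28 and 13.08 on SKRC39 replicates 1 and 2. The change was -1.47 ± 0.43 (2.76-fold lower, adjusted p = 0.25, limma). The dimmer probe read 9.07 and 5.65 on RXF393 replicates 2 and 3, against 11.34 and 9.85 on SKRC39 replicates 1 and 2. It was detected on 1 of the 2 RXF393 arrays, so its mean difference is given as a bound, at least 8.73-fold lower with RXF393 (adjusted p = 0.33). Both probes separated the lines, but they did not order the arrays alike: RXF393 replicate 3 was the higher RXF393 array on the brighter probe and undetected on the dimmer, and SKRC39 replicate 2 was the higher of its pair on one probe and the lower on the other. On the arrays titled SKR_3 and RXF_1 the brighter probe read 11.29 and 12.46.

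Esrrg encodes ERR gamma, which is typical of oxidative muscle. Its brightest probe read 8.96 and 9.03 on RXF393 replicates 2 and 3, against 9.40 and 8.76 on SKRC39 replicates 1 and 2. Both RXF393 values lay between the SKRC39 values, and the change was -0.09 ± 0.58 (adjusted p = 0.96, limma). A second tested probe stood at -0.91 ± 0.74 (adjusted p = 0.60), was not detected on RXF393 replicate 3 and overlapped between lines; another was detected on none of the 6 arrays. Esrrb encodes ERR beta. It read 8.92 and 10.12 on RXF393 replicates 2 and 3, against 9.27 and 10.06 on SKRC39 replicates 1 and 2, with a change of -0.15 ± 0.63 (adjusted p = 0.93). Replicates of each line differed more than the lines did, and a second Esrrb probe, detected on 1 of 6 arrays, was not tested. Of the 3 ERR genes, only Esrra separated the lines; whether its change differs from those of Esrrb and Esrrg was not tested.

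**Figure D2:**
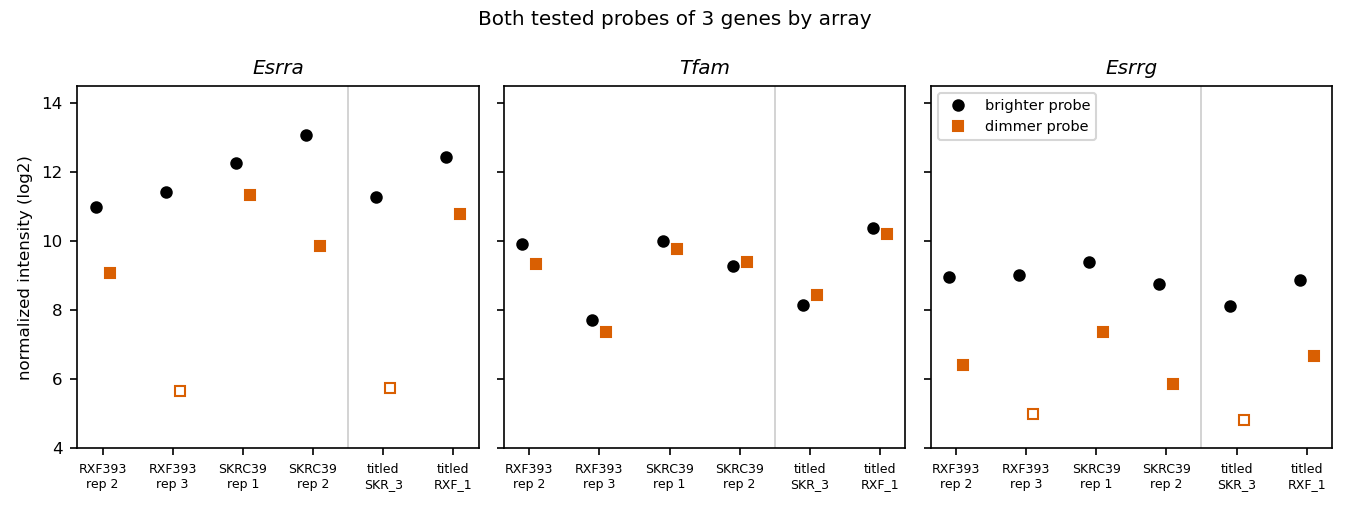
Log2 intensity of both tested probes of Esrra, Tfam and Esrrg on each of the 6 arrays; black circles are the brighter probe, orange squares the dimmer, and open symbols mark arrays where the probe was not detected. The 2 Tfam probes track each other closely, while the dimmer Esrra and Esrrg probes drop to background on RXF393 replicate 3 and on the array titled SKR_3, where the brighter probes do not.

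Ppard encodes PPAR delta, the PPAR form that prevails in skeletal muscle. It read 11.80 and 12.33 on RXF393 replicates 2 and 3, against 10.86 and 11.07 on SKRC39 replicates 1 and 2. Both RXF393 arrays lay above both SKRC39 arrays, and the change was 1.10 ± 0.40 (2.14-fold higher, adjusted p = 0.35, limma). The other Ppard probe was detected on none of the 6 arrays. On the arrays titled SKR_3 and RXF_1 Ppard read 12.03 and 10.82. Ppara encodes PPAR alpha, known best from liver fasting metabolism, and its only probe was dim. It read 5.48 and 7.68 on RXF393 replicates 2 and 3, against 5.20 and 4.89 on SKRC39 replicates 1 and 2. It was detected on RXF393 replicate 3 alone of these 4 arrays, and no fold is given. The fitted change of 1.53 ± 0.74 (adjusted p = 0.43, limma) was 0.74 in the authors' normalized table and 0.67 without background correction. It rests on 1 array: without RXF393 replicate 3 the change was 0.43, and without RXF393 replicate 2 it was 2.64. On the arrays titled SKR_3 and RXF_1 Ppara was detected, at 6.94 and 5.50.

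Tfam read 9.92 and 7.73 on RXF393 replicates 2 and 3, against 10.02 and 9.27 on SKRC39 replicates 1 and 2. RXF393 replicate 3 was low, while RXF393 replicate 2 lay between the SKRC39 arrays, and the change was -0.82 ± 0.82 (adjusted p = 0.66, limma). The value turned on that array, being 0.28 without RXF393 replicate 3 and -1.92 without RXF393 replicate 2. The second Tfam probe separated the lines, with both RXF393 arrays below both SKRC39 arrays, at 9.33 and 7.36 on RXF393 replicates 2 and 3, against 9.79 and 9.41 on SKRC39 replicates 1 and 2 (change -1.25 ± 0.77, adjusted p = 0.52). The arrays titled SKR_3 and RXF_1 read 8.15 and 10.39 on the brighter probe.

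How many regulators passed depended in part on how the arrays with conflicting labels were grouped. With all 6 arrays grouped by characteristics, which gives SKR_3 to RXF393 and RXF_1 to SKRC39, 5 of the 10 regulators passed, against 18.3% of all genes. They were Perm1 (-2.53 ± 0.34, adjusted p = 0.00496), Ppargc1b (-1.90 ± 0.28, adjusted p = 0.00662), Rxrg (-3.04 ± 0.45, adjusted p = 0.00686), Esrra (-1.37 ± 0.27, adjusted p = 0.0172) and Ppard (1.14 ± 0.23, adjusted p = 0.0196). With the 6 arrays grouped by title, 0 of the 10 passed (limma; 0 also at an unadjusted p under 0.05), as did 0.0% of all genes, and Perm1 stood at -0.59 ± 1.00. Which grouping is right cannot be told from the labels.

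**Figure D3:**
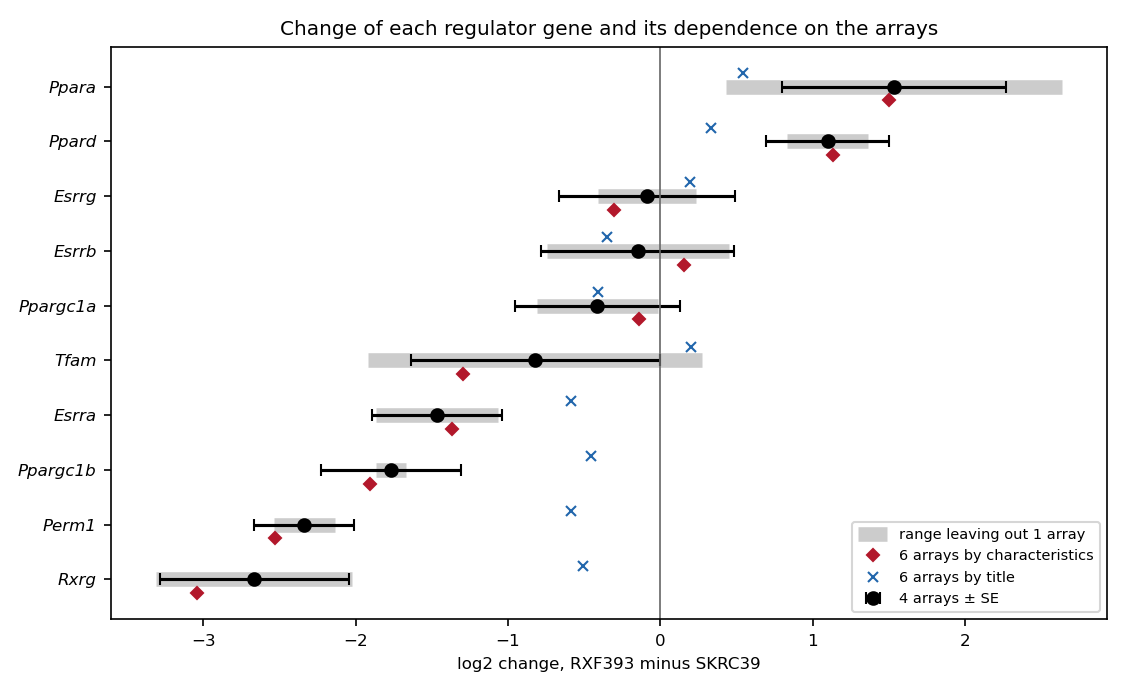
Log2 change of each regulator, RXF393 minus SKRC39. Black points with bars are the 4-array fit with its SE, grey bars the range when 1 array at a time is left out, red diamonds all 6 arrays by characteristics and blue crosses all 6 arrays by title. Rxrg, Perm1, Ppargc1b and Esrra stay below 0 and Ppard and Ppara above 0 in every setting drawn, whereas Tfam, Esrrb and Esrrg cross 0 in some.

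Promoter windows of RefSeq (GRCm38.p6, 250 bases before to 50 after each annotated start, 300 in all) were held for 9 of the 10 genes, in 14 windows; none was held for Ppargc1b. They were searched on both strands for AAGGTCA, the half-site that ERRs bind as single receptors, and for CAGCTG, an E-box of the kind that myogenic factors bind. AAGGTCA occurs in 4.72% of all 32851 windows and in 2 of the 14, 1 of Perm1 (minus strand, at -202 from the start) and 1 of Rxrg (plus strand, at -89). The shorter AGGTCA, contained in it, was found in the same 2 windows and in 16.3% of all windows. CAGCTG occurs in 16.3% of all windows and in 4 of the 14, of Esrra, Esrrb, Ppard and Rxrg; in Rxrg it begins at -84 and shares 2 bases with the AAGGTCA match. The windows of 3 genes that lay lower with RXF393 and of Ppard, which lay higher, are printed 5′ to 3′ on the gene's strand with AAGGTCA (or its reverse complement) and CAGCTG in capitals. For Rxrg, the one of its 2 windows that holds the matches is shown. A match describes letters and is no evidence of binding, and a window without one says nothing of the factor.
Perm1, chr4:156215677-156215976, plus strand: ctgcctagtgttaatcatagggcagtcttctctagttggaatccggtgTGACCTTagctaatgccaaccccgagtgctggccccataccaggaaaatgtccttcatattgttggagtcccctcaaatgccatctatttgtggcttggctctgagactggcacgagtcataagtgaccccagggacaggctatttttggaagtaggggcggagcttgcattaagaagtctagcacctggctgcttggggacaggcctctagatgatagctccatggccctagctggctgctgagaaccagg
Rxrg, chr1:167618015-167618314, plus strand: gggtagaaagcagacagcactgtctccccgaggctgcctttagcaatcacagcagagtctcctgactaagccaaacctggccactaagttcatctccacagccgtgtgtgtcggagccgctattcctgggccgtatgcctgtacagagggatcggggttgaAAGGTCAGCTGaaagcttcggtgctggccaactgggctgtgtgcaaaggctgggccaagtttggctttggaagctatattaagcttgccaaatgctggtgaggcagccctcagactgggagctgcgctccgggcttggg
Esrra, chr19:6921759-6922058, minus strand: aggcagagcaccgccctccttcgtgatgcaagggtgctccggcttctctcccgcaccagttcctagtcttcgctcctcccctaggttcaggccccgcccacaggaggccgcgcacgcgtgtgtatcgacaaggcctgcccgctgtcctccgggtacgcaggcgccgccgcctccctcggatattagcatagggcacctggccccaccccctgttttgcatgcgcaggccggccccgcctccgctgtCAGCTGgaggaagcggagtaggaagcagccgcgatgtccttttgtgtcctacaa
Ppard, chr17:28232504-28232803, plus strand: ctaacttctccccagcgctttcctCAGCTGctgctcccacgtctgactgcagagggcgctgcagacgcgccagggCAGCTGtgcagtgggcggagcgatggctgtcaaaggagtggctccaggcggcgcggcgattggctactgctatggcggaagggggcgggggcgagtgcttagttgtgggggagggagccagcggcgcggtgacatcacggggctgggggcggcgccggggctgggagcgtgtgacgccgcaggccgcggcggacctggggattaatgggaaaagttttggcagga

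Genes known to be driven by PGC-1 and ERR in muscle lay mostly lower with RXF393. Of a list of 28, 26 were tested, and 24 of the 26 had a negative change, against 46.5% of all genes; the median was -0.67. None passed the threshold in limma's test, 10 were lower and 0 higher at an unadjusted p under 0.05 (6.69% of all genes lower and 8.1% higher), and in 15 the RXF393 arrays lay wholly below the SKRC39 arrays (20.6% of all genes). Ckmt2, the creatine kinase of muscle mitochondria, read 14.45 and 13.81 on RXF393 replicates 2 and 3, against 15.86 and 15.60 on SKRC39 replicates 1 and 2 (change -1.60 ± 0.29, adjusted p = 0.11). Idh3a, a subunit of the TCA-cycle isocitrate dehydrogenase, read 12.56 and 11.68 with RXF393, against 14.10 and 13.98 with SKRC39 (change -1.92 ± 0.38, adjusted p = 0.13). Cycs, cytochrome c, read 13.91 and 13.92 with RXF393, against 14.87 and 14.83 with SKRC39 (change -0.94 ± 0.24, adjusted p = 0.20). These 3 genes had the smallest p of the list on the same arrays, so that both RXF393 arrays lay below both SKRC39 arrays in them adds no support. By characteristics, 13 of the 26 passed, all lower, where 7.81% of all genes passed as lower and 10.5% as higher. The list was chosen with earlier results of these data known, so its counts are descriptions.

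Genes known to be driven by PPARs in muscle were split. Of 26 listed, 23 were tested, 13 with a positive and 10 with a negative change (53.5% of all genes were positive), with a median of 0.36. None passed in limma's test; 6 were higher and 1 lower at an unadjusted p under 0.05, against 8.1% and 6.69% of all genes. Acot1, an acyl-CoA thioesterase, read 12.49 and 11.11 on RXF393 replicates 2 and 3, against 7.23 and 7.88 on SKRC39 replicates 1 and 2 (change 4.24 ± 0.65, adjusted p = 0.0682). Plin5, a lipid-droplet coat protein of oxidative tissue, read 11.79 and 11.40 with RXF393, against 9.13 and 9.99 with SKRC39 (change 2.03 ± 0.50, adjusted p = 0.19). Pdk4, the kinase that inhibits pyruvate dehydrogenase, read 15.9997 and 15.01 with RXF393, against 14.06 and 12.35 with SKRC39 (change 2.30 ± 0.58, adjusted p = 0.20). The highest log2 intensity of any probe was 16.15 on each array, so Pdk4 on RXF393 replicate 2 lay near the top of the range. By characteristics, 9 of the 23 passed as higher and 1 as lower, against 10.5% and 7.81% of all genes. Both target lists share Acadm and Fabp3.

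**Figure D4:**
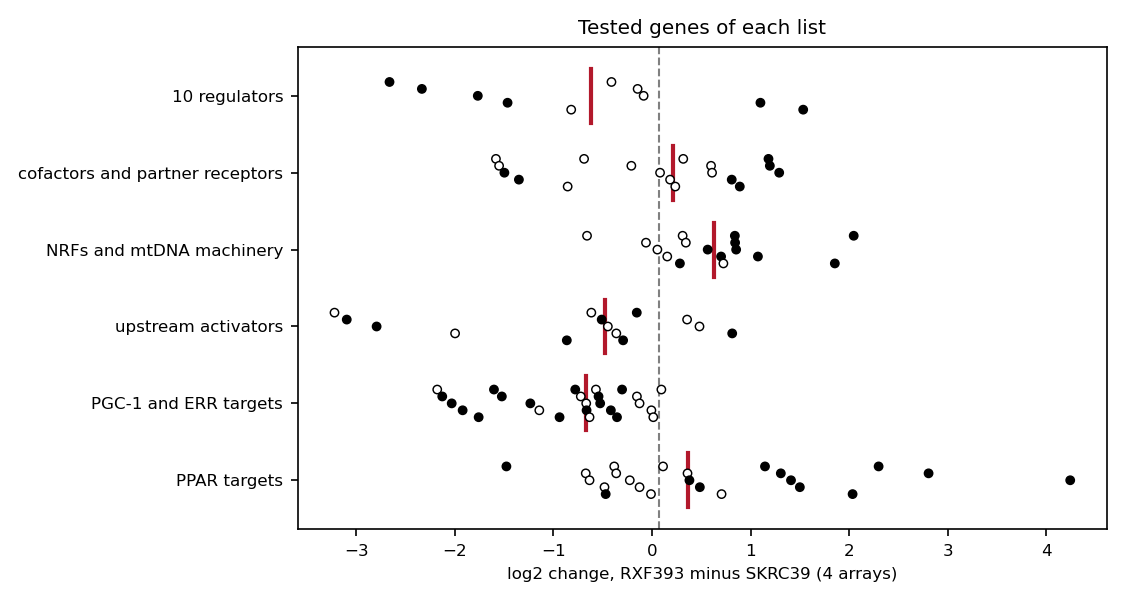
Log2 change (RXF393 minus SKRC39, 4 arrays) of each tested gene in 6 lists. Filled circles are genes whose lines do not overlap, red bars list medians, and the dashed line is the median of all genes tested. PGC-1 and ERR targets lie mostly left of the dashed line with a median of -0.67, the mitochondrial DNA machinery mostly right of it with a median of 0.63, and PPAR targets spread to both sides.

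Of 20 nuclear respiratory factors and genes that maintain or transcribe mitochondrial DNA, 16 were tested; 14 had a positive change (53.5% of all genes), the median was 0.63, and none passed. Mterf3, a repressor of mitochondrial transcription, read 10.65 and 11.43 on RXF393 replicates 2 and 3, against 8.995 and 8.992 on SKRC39 replicates 1 and 2 (change 2.05 ± 0.52, adjusted p = 0.20, limma). Mterf1a, of the same family, stood at 1.85 ± 0.64 (adjusted p = 0.31) and Tfb2m, which opens mitochondrial promoters together with TFAM, at 0.70 ± 0.39 (adjusted p = 0.48). Of 24 partner receptors and cofactors 18 were tested, with a median of 0.21 and none past the threshold. Mybbp1a, a repressor of PGC-1 alpha, stood at 1.18 ± 0.34 (adjusted p = 0.25), the mitochondrial deacetylase gene Sirt3 at -1.50 ± 0.50 (adjusted p = 0.30) and the clock repressor Nr1d1 at 1.19 ± 0.59 (adjusted p = 0.44). At an unadjusted p under 0.05 the mitochondrial DNA list had 2 of 16 higher and 0 lower, and the cofactor list 1 of 18 each way, near the 8.1% higher and 6.69% lower over all genes. RXF393 lay wholly above SKRC39 in 9 of the 16 and wholly below in 0. In the cofactor list it lay above in 5 of the 18 and below in 2. Over all genes these shares were 28.1% and 20.6%.

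Of 16 genes listed as acting upstream of Ppargc1a 14 were tested, 11 with a negative change and a median of -0.48. The 11 include the class II deacetylases Hdac4 (-0.62) and Hdac5, so they are not counted as activators alone. The part each listed gene plays in Ppargc1a expression was not tested. Mef2c, a muscle transcription factor known to act on the Ppargc1a promoter, fell: it read 12.10 and 11.22 on RXF393 replicates 2 and 3, against 14.66 and 14.86 on SKRC39 replicates 1 and 2. Its change was -3.10 ± 0.38 (8.56-fold lower, adjusted p = 0.0430, limma), and it was the only tested gene of these pathway lists to pass. The call held when any 1 array was left out, and was lost with median scaling (adjusted p = 0.15), in the authors' normalized table (0.0505), with the mean of the gene's probes (0.10), without the intensity trend (0.21) and by title (1). The array titled SKR_3 read 10.32 and the array titled RXF_1 read 14.57. Camk2a, a calcium and calmodulin-dependent kinase, stood at -2.79 ± 0.78 (adjusted p = 0.24) and the class II deacetylase Hdac5 at -0.86 ± 0.46 (adjusted p = 0.47).

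The genes whose centred profiles over the 6 arrays lay closest to 9 of the regulators were found among 7246 genes detected on all 6, by the root mean square (RMS) difference on the log2 scale. These are descriptions over 6 arrays that share normalization. Perm1, whose values spanned 3.60, was closest to Chrne, the epsilon subunit of the adult acetylcholine receptor (RMS 0.22), then Btbd6 and Ahdc1 (both 0.23). Rxrg, spanning 3.89, was closest to Aimp2 (0.10), Trp53inp2 (0.12) and Synm (0.23), an intermediate filament protein. Ppargc1b was closest to Pip4k2b (0.09), Arhgef6 (0.11) and Pgm1 (0.12), Esrra to Zfp41 (0.09), Tmem106c (0.10) and Kmt5c (0.13), and Ppard to Pafah2 (0.07), Zfp341 (0.08) and Hp1bp3 (0.09). Tfam, spanning 2.66, was closest to Senp3 (0.18), Cct6a (0.19) and Rps16 (0.19). For Ppargc1a (span 1.21), Esrrg (1.27) and Esrrb (1.59), the closest were Zmiz1 (0.19), Icam1 (0.21) and Fbxo21 (0.23); Tfcp2l1 (0.12), Usp21 (0.17) and Atf5 (0.19); and C1qtnf9 (0.19), P3h1 (0.20) and Fezf2 (0.22). Ppara, detected on 3 of the 6 arrays, was not compared.

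The tissue label held: all 13 tested fibre markers, among them Acta1, Ckm, Myh4 and Ttn, were detected on every array. Acta1, Ckm, Tnni2, Tnnc2, Pvalb and Atp2a1 read above 16 on all 4 arrays, near the maximum of 16.15, where a change could not be seen. Of the fibre markers with the smallest p, Mb (myoglobin) stood at -0.78 ± 0.22, Myh1 at -0.56 ± 0.28 and Mylpf at -0.28 ± 0.20 (adjusted p = 0.24, 0.44 and 0.56, limma). The share of probes detected was 33.7% and 30.9% on RXF393 replicates 2 and 3, against 37.7% and 33.7% on SKRC39 replicates 1 and 2. Markers of other cells and fibre types moved beside the regulators, and their part in the results was not tested. Of the 8 slow-fibre markers 7 had a negative change, against 46.5% of all genes, and Myh7, detected on 1 array of each line, stood at 0.04 ± 0.43. Their median was -1.14 on the 4 arrays but 0.39 with all 6 arrays by characteristics, so the direction depends on the grouping. Myl3 stood at -1.52 ± 0.42, Tnnt1 at -1.40 ± 0.46 and Tnnc1 at -1.33 ± 0.49 (adjusted p = 0.23, 0.29 and 0.35, limma). The 8 had a summed intensity of 45808 and 123625 on RXF393 replicates 2 and 3, against 180000 and 156602 on SKRC39 replicates 1 and 2. On the array titled RXF_1 that sum was 6025, the lowest of the 6, while Perm1, Rxrg, Ppargc1b and Esrra were high there. All 10 fibroblast markers had negative changes, with sums of 20040 and 25590 with RXF393, against 31192 and 35228 with SKRC39. Dcn carries most of the fibroblast sums and stood at -0.45 ± 0.25 (adjusted p = 0.49, limma). Fmod was at least 5.58-fold and Col1a1 at least 5.50-fold lower, and Thy1 stood at -2.01 ± 0.60 (adjusted p = 0.15, 0.21 and 0.26). Of 12 neutrophil markers 5 were tested, with sums of 1994 and 6280 with RXF393, against 320 and 655 with SKRC39. S100a8 stood at 3.47 ± 0.74, S100a9 at 2.68 ± 0.89, and Retnlg, undetected on both SKRC39 arrays, was at least 6.73-fold higher (adjusted p = 0.15, 0.30 and 0.25, limma). The other tested markers were Mmp9 at 0.75 ± 0.51 and Csf3r at -0.24 ± 0.40, the latter undetected on both RXF393 arrays. Mpo, Elane, Ltf, Camp, Ngp, Mmp8 and Cxcr2 were below the filter. The 3 tested erythroid markers summed to 78911 and 74755 with RXF393, against 67442 and 26631 with SKRC39, with Slc4a1 at 3.65 ± 0.67, Alas2 at 2.61 ± 0.53 and Hba-a1 at 0.71 ± 0.41 (adjusted p = 0.11, 0.14 and 0.49). Hba-a1 carries most of these sums and read 16.12 and 15.96 with RXF393, against 15.997 and 14.66 with SKRC39, near the top of the range. No marker of these lists passed the threshold.

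In the lists of the remaining cell types the 3 genes with the smallest p were as follows, and none passed. Adipocyte markers, in which Pparg is also counted, had Lep at least 3.39-fold lower in the mean, Fabp4 at 0.53 ± 0.60 and Cidec detected on neither RXF393 array and on 1 of the 2 SKRC39 arrays. Lep was undetected on both RXF393 arrays and read 6.31 and 8.73 on SKRC39 replicates 1 and 2, so its bound rests mostly on replicate 2. Endothelial markers had Esam at 0.68 ± 0.35, Pecam1 at 1.17 ± 0.74 and Tie1, undetected with RXF393. Macrophage markers had Cd14 at 1.65 ± 0.66, C1qb at -1.70 ± 0.77 and C1qa at -1.09 ± 0.65. Schwann cell markers had Mbp at 0.35 ± 0.75, Sox10 at 0.21 ± 0.65 and Pmp22 at -0.06 ± 0.52, and the 2 tested satellite cell markers, Cdh15 and Sdc4, stood at 0.21 ± 0.41 and 0.06 ± 1.18.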

How the data were processed

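Arrays were Illumina MouseWG-6 v2.0 beadchips. Per the file headers, one deposited table gives for every probe its intensity, linear and not normalized, together with the detection p-value. A second one gives intensity after quantile normalization by the authors (GenomeStudio module 1.9.0, per the labels) and served as an alternative. Probe symbols came from the platform annotation: 34885 of 45281 probes had 1 symbol, 18 several and 10378 none listed. All 10 regulators matched RefSeq by gene ID. A build for the array probes is not given in the sources used here.

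Background was corrected by normexp from the detection p-values, followed by quantile normalization over the 6 arrays with an offset of 16, which shrinks changes of dim probes (neqc, limma 3.58.1, R 4.3.3). Probes detected (p below 0.05) on 2 or more arrays, 17738 in all, entered lmFit and eBayes with an intensity trend, two-sided, with Benjamini-Hochberg adjustment over all of them across all genes. A gene's value is its tested probe with the highest mean. Where a line lacked detection on an array, the fold is a bound against the higher of the probe's value and the array's lowest detected value. The fit was tested on simulated data with independent noise and planted changes larger than that of any regulator in the main fit. That test does not show how well changes of the regulators' size are found.

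The regulators and gene lists were chosen with earlier results of these data known. Named were all 10 regulators, list members past the threshold and the 3 per list with the smallest p, and the 3 nearest profiles of each regulator but Ppara. Precision is limited by the small number of arrays.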

Additional observations from a re-analysis of the deposited data

How the results depend on the processing

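The direction of Perm1, Rxrg, Ppargc1b, Esrra, Ppargc1a and Ppard held in all 20 alternatives and that of Ppara in 19, the filter for detection on all 6 arrays leaving Ppara out. Many of these could not reverse it. Settings of the probe filter, intensity trend, robust fit, array weights or replicate block left the regulators' changes as they were. Where lines do not overlap, leaving out an array cannot change the sign. Ppargc1a, whose lines overlap, came as close to 0 as -0.01. Reversals, none past the threshold and with causes not tested, were Esrrb at 0.15 by characteristics, with or without the replicate block, and at 0.45 and 0.25 without RXF393 replicate 2 and SKRC39 replicate 2; Esrrg at 0.19 by title and 0.23 without SKRC39 replicate 1; and Tfam at 0.20 by title and 0.28 without RXF393 replicate 3. The count of regulators past the threshold, 0 in the report, was 1 among probes detected on all 6 arrays and 1 with robust eBayes (Perm1 in both), 5 by characteristics, and 0 to 2 when an array was left out. Leaving out an array gave -1.92 to 0.28 for Tfam, -0.75 to 0.45 for Esrrb and -0.41 to 0.23 for Esrrg. The 2 without RXF393 replicate 2 were Perm1 and Rxrg. The count of regulators with non-overlapping lines, 6, was 0 by title. Over all genes, 36 past the threshold became 0 with median scaling and also without the intensity trend (1536 and 1350 had an unadjusted p under 0.05), 147 among probes detected on all 6 arrays, 88 with robust eBayes, 1868 by characteristics, 0 by title, and 20 to 450 leaving out an array. Fits with 1 array in a line assume that it varies like the others. The median of all genes moved by 0.11 without RXF393 replicate 2 and 0.12 without SKRC39 replicate 2.

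The description field numbers the arrays 1 to 3 within each line of the characteristics, and nothing says that a number marks a shared litter or day. Deviations from line means correlated at 0.49 and 0.46 for numbers 1 and 3, and at -0.12 for number 2, the arrays with conflicting labels. Whether the numbers mark pairs of samples cannot be told from these values, and the main fit used no pairing. With the replicate block on 4 arrays, 356 genes and 2 regulators (Perm1, adjusted p = 0.0231, and Rxrg, adjusted p = 0.0338, limma) passed; with it on 6 arrays by characteristics, 3114 genes and 5 regulators.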
